A study of Mus musculus with 48 samples.

Results

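The genes described here encode the kinases and phosphatases of the pyruvate dehydrogenase complex and the uncoupling proteins that carry ions or metabolites across the mitochondrial inner membrane. They are the kinases Pdk1, Pdk2, Pdk3 and Pdk4, the phosphatases Pdp1 and Pdp2, and the carriers Ucp2 and Ucp3. Their probes were taken by gene name alone. The 8 genes had 16 probes on the arrays, of 37074 gene names and 56605 probes in all. All 16 probes passed the filter on dim probes, which removed probes that fewer than 4 of the 8 arrays detected in every group and left 22029 gene names and 33323 probes. Of the 16 probes, 13 were well above background on all 48 arrays. The other 3 were dim. Both Pdk3 probes were above background on 23 and 15 arrays and the second Pdp1 probe on 19, so these 3 probes entered the test only through the groups in which at least 4 of 8 arrays detected them.

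Liver RNA was measured in 48 male C57Bl6J mice aged 20 weeks, on 1 single-colour Agilent array per mouse and with 8 mice in each of 6 groups. WT mice were compared with PPARaKO mice, which lack Pparα in every cell from the germline on, and with PPARaLKO mice, whose floxed Pparα alleles are deleted by a Cre recombinase under the albumin promoter, so that liver cells other than hepatocytes keep the gene. Each genotype received the CTRL diet or the HFD, which contained 60% fat and was given for 12 weeks according to the labels, whereas the study's methods give a shorter time. All mice were kept at thermoneutrality and were killed in the fed state. In the study's methods the C57BL/6J mice came from Charles River, whereas both mutant lines came from the facilities of INRA. Genotype and colony therefore cannot be told apart in comparisons with WT mice. Pparα encodes a nuclear receptor that switches on fatty acid oxidation in hepatocytes, and the design asked which responses to the HFD need the receptor, and in which cells.

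The pyruvate dehydrogenase complex turns pyruvate into acetyl-CoA inside mitochondria and so commits carbohydrate carbon to oxidation or to lipid synthesis. The Pdk kinases phosphorylate the E1 alpha subunit and switch the complex off, whereas the Pdp phosphatases remove the phosphate and switch it on again. Pdk4 is the kinase known for its rise in fasting, when fatty acids replace glucose as fuel, and it is a target of PPAR receptors. Ucp2 is found in many tissues and is abundant in macrophages and other immune cells, and Ucp3 is known mainly from skeletal muscle and brown fat.

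Sequences are shown for the members whose groups separated or whose probes need care. The promoters of Pdk4 and Pdp2 are printed because these were the members with a probe on which no WT mouse overlapped either mutant on the CTRL diet, and those of Ucp3 and Ucp2 because these neighbouring genes moved together. RefSeq promoters (GRCm38.p6, the 250 bases before the start, read 5′ to 3′ on the strand of the gene) were found for 7 of the 8 members. Capitals mark the hexamer AGGTCA, the core of many nuclear receptor sites, which was searched on both strands.
Pdk4 promoter, chr6:5496279-5496528, minus strand: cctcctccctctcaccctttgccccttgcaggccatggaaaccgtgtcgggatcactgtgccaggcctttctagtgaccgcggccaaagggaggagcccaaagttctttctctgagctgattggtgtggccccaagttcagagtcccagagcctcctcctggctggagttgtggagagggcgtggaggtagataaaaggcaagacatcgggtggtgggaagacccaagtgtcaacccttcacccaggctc
Pdp2 promoter, chr8:104591222-104591471, plus strand: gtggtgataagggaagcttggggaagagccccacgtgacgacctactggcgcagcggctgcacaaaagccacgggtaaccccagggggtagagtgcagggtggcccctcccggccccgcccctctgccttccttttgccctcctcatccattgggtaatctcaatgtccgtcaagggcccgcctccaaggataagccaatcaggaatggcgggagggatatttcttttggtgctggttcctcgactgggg
Ucp3 promoter, chr7:100472741-100472990, plus strand: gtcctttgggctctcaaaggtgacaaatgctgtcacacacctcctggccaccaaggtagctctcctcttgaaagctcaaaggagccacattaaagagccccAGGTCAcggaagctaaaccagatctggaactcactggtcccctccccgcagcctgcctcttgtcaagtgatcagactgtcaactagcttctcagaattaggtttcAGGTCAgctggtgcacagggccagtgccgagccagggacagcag
Ucp2 promoter, chr7:100493108-100493357, plus strand: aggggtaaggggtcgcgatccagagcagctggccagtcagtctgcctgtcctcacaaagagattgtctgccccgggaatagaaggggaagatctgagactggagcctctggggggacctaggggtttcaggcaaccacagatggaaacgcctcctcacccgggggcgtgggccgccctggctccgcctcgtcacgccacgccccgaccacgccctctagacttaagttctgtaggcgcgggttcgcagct
Of these 7 members, Ucp3 alone had the hexamer in this window, in 2 copies, beginning 149 and 44 bases before the start. At least 1 copy was found in 14% of the 32851 promoters of the same length, and 2 or more in 1.36% of them. The spaced repeat AGGTCANAGGTCA, which holds the hexamer and is the form that PPAR receptors bind, was in none of the members' windows and in 0.0335% of all windows.

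The probes of Ucp3 and Ucp2 and part of a Pdp2 probe are given so that the signals can be judged. The Ucp3 probe lay at chr7:107630399-107630458 (mm9, as in the files), and the first Ucp2 probe at chr7:107647809-107647868, where its bases up to the stop codon, in capitals, are shown. The first Pdp2 probe lay at chr8:107119568-107119627 and ended in alternating T and G, of which the last 30 bases are shown in capitals.
Ucp3 probe: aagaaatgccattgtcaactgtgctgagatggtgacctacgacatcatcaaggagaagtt
Ucp2 probe, up to the stop codon: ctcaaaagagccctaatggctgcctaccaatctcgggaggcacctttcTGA
Pdp2 probe, last 30 bases: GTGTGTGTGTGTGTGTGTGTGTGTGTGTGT
This run of alternating T and G was 37 bases long in the 60-base Pdp2 probe, and 21 of the 33323 probes tested (0.063%) had a run of at least 30 bases. The second Pdp2 probe, at chr8:107120490-107120549, had none. The first is called the repeat probe and the second the unique probe below.

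Signals are given as quantile normalized log2 values, on which a difference of 1 is a 2-fold change, and a gene is represented by the brightest of its tested probes, by the mean over all arrays. Differences are limma estimates with their standard error (SE), called at a Benjamini-Hochberg adjusted p of at most 0.05 over all probes tested. Between 28234 and 38217 spots that were not controls were well above background per array, and 0 spots were saturated. The wash batch was a term of the fit, and arrays were weighted by their quality, with weights from 0.189 to 2.53. The lowest weights belonged to the array of PPARaLKO CTRL replicate 1, at 0.189, and that of WT CTRL replicate 6, at 0.208. The 32 calls made for the 8 genes over 12 comparisons remained when both were left out, and 4 were added. Without any array weights, 25 of the 32 calls were lost. The 7 kept were Pdk4 in 3 genotype comparisons, Pdp2 in 2 comparisons on the repeat probe, Ucp3 in the HFD response of WT mice, and Pdk3 between the HFD-fed PPARaKO and WT mice, on a probe that 1 of 8 WT HFD arrays detected.

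The Pparα probes served as a check of the labels. On the CTRL diet the signal of the first Pparα probe was lower by 0.65 in PPARaKO mice than in WT mice, on a log2 scale (log2 fold change −0.65, SE 0.10, adjusted p = 1.10e-06), and by 0.42 in PPARaLKO mice (log2 fold change −0.42, SE 0.10, adjusted p = 0.000887). The second Pparα probe fell in PPARaKO mice (log2 fold change −1.11, adjusted p = 5.27e-13) and gave −0.10 in PPARaLKO mice on the same diet (adjusted p = 0.454). Between PPARaKO and PPARaLKO mice on the CTRL diet the first probe gave −0.23, which was not called (adjusted p = 0.0572). The second gave −1.01 (adjusted p = 4.29e-13). On the HFD the first and second probes were lower than in WT mice by −1.08 and −1.29 in PPARaKO mice (adjusted p = 2.77e-14 and 1.74e-17) and by −0.85 and −0.68 in PPARaLKO mice (adjusted p = 5.12e-10 and 3.34e-08). Whether the probes lie in the deleted part of the gene was not tested. All 8 hepatocyte markers were above background on all 48 arrays, and the median of their mean log2 signal was 17.35 to 17.54 in the 6 groups. Of these markers, Apoa1 and Hnf4a were lower in both mutants than in WT mice on the CTRL diet and in PPARaKO mice on the HFD, Apoa1 was lower in PPARaLKO than in WT mice on the HFD, and the HFD lowered Fgb in WT and PPARaLKO mice, and raised Apoa1 and lowered Tat in PPARaKO mice.

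**Figure D1:**
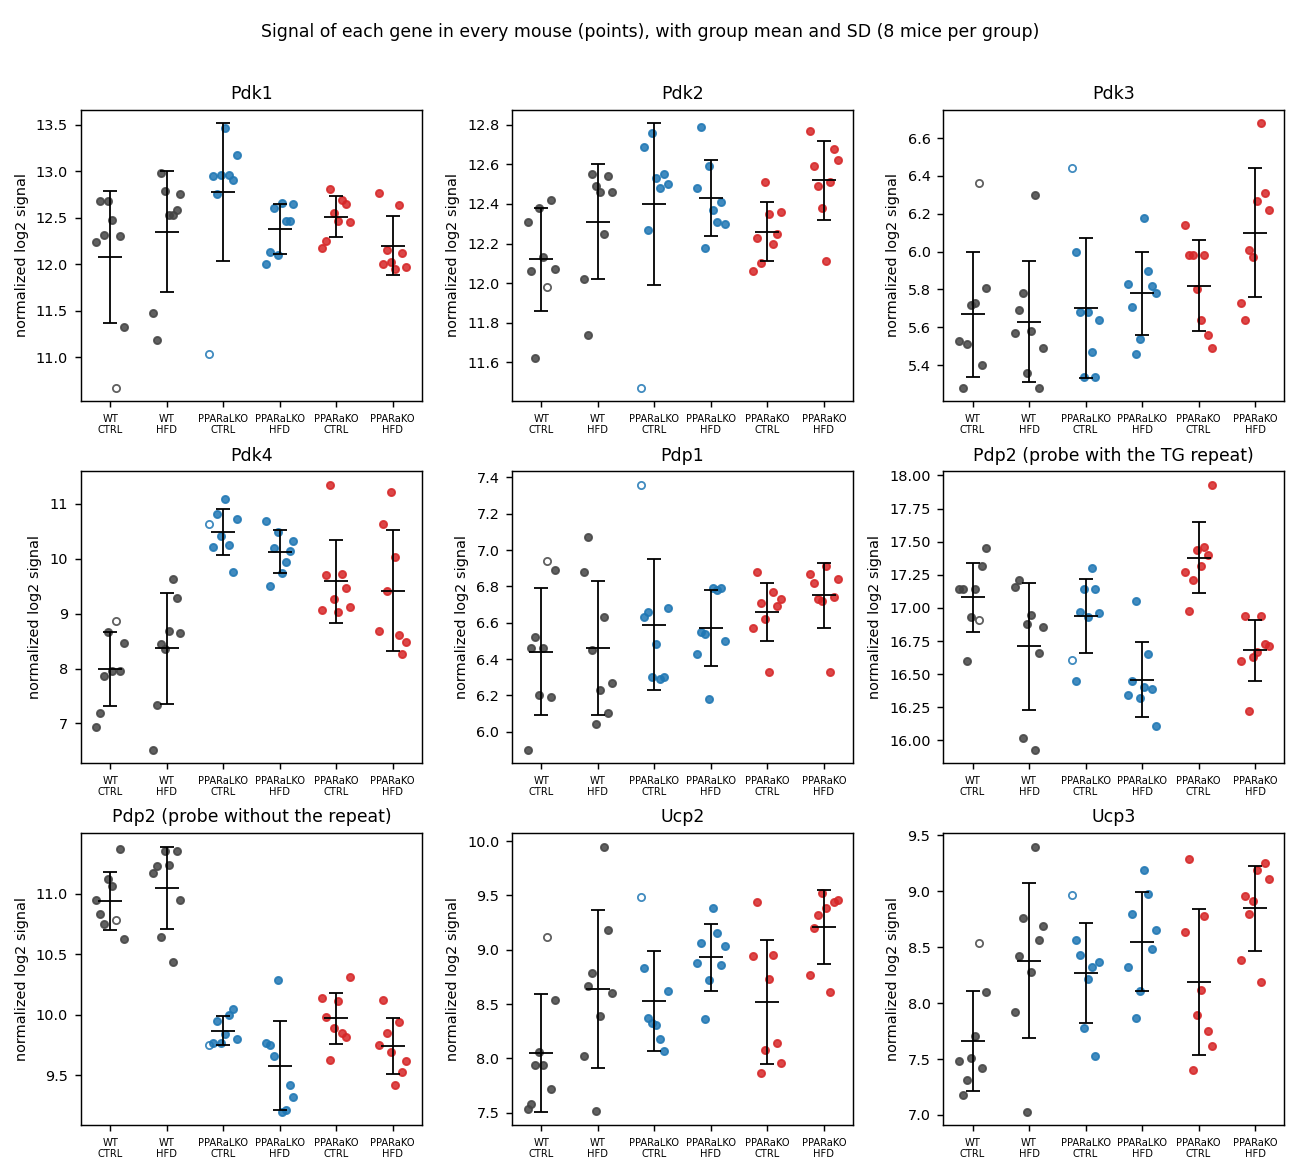
Normalized log2 signal of each gene in every mouse, by group, with the mean and SD of 8 mice; Pdp2 is shown on both probes, and open circles are the 2 arrays of lowest weight. Pdk4 was at 6.94 to 8.86 in WT CTRL mice and at 9.76 to 11.09 in PPARaLKO CTRL mice, and the Pdp2 unique probe was at 10.63 to 11.37 and at 9.75 to 10.05 in the same groups.

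Pdk4, the kinase of the fasting response, was higher in both mutants than in WT mice on the CTRL diet, and highest in the mice that lacked Pparα in hepatocytes alone. WT CTRL mice ran from 6.94 to 8.86 with a median of 7.95. PPARaLKO CTRL mice ran from 9.76 to 11.09 (median 10.52), and PPARaKO CTRL mice from 9.03 to 11.35 (median 9.37). Every mutant mouse on the CTRL diet was thus above every WT mouse on that diet, while the mutants overlapped each other. The difference was 6.44-fold between PPARaLKO and WT mice (log2 fold change 2.69, SE 0.34, adjusted p = 1.30e-07) and 3.07-fold between PPARaKO and WT mice (log2 fold change 1.62, SE 0.36, adjusted p = 0.000379). Of all probes tested, 1.31% and 6.15% did not overlap between groups in these comparisons. PPARaKO mice were below PPARaLKO mice (log2 fold change −1.07, SE 0.32, adjusted p = 0.011). The PPARaLKO excess was 2.14 and 2.89 within wash batches 1 and 2, and the PPARaKO excess 1.57 and 1.77.

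On the HFD the Pdk4 signal of WT mice spread from 6.52 to 9.64 with a median of 8.55. PPARaLKO HFD mice ran from 9.51 to 10.69 (median 10.16) and PPARaKO HFD mice from 8.27 to 11.22 (median 9.05). Thus 8 of 8 PPARaLKO mice exceeded the WT mean, although the ranges overlapped slightly, and the PPARaKO mice overlapped the WT mice. The PPARaLKO mice were 2.78-fold above WT mice (log2 fold change 1.47, SE 0.31, adjusted p = 0.000411), and 1.40 and 1.38 log2 units above them within wash batches 1 and 2, the first of which was not called (adjusted p = 0.0578). The PPARaKO mice differed from WT mice by 0.68 (SE 0.31, adjusted p = 0.0696), without array weights by 1.05 (adjusted p = 0.0212), and by 1.08 and 0.20 within the wash batches. PPARaKO mice were again below PPARaLKO mice (log2 fold change −0.80, SE 0.29, adjusted p = 0.032). Both calls of PPARaKO below PPARaLKO mice were lost without array weights, at an adjusted p of 0.058 on the CTRL diet and 0.231 on the HFD. Within wash batches 1 and 2 the difference of the mutants was −0.57 and −1.12 on the CTRL diet and −0.32 and −1.19 on the HFD, and it was not called within wash batch 1 (adjusted p = 0.603 and 0.68). On the HFD it was also not called without the filter on dim probes (adjusted p = 0.0761) and with the slide as a block (adjusted p = 0.0503).

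The HFD itself did not give a called change of Pdk4 in any genotype. The response was 0.74 in WT mice (SE 0.35, adjusted p = 0.147), −0.47 in PPARaLKO mice (SE 0.30, adjusted p = 0.274) and −0.20 in PPARaKO mice (SE 0.31, adjusted p = 0.688). The WT response exceeded that of PPARaLKO mice by 1.21, with a 95% interval of 0.28 to 2.15, which did not pass the adjusted test (adjusted p = 0.0832). Within wash batches 1 and 2 the response was 0.26 and −0.79 in PPARaLKO mice and 0.52 and −0.86 in PPARaKO mice, so that the sign of the mutants' responses differed between the batches.

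**Figure D2:**
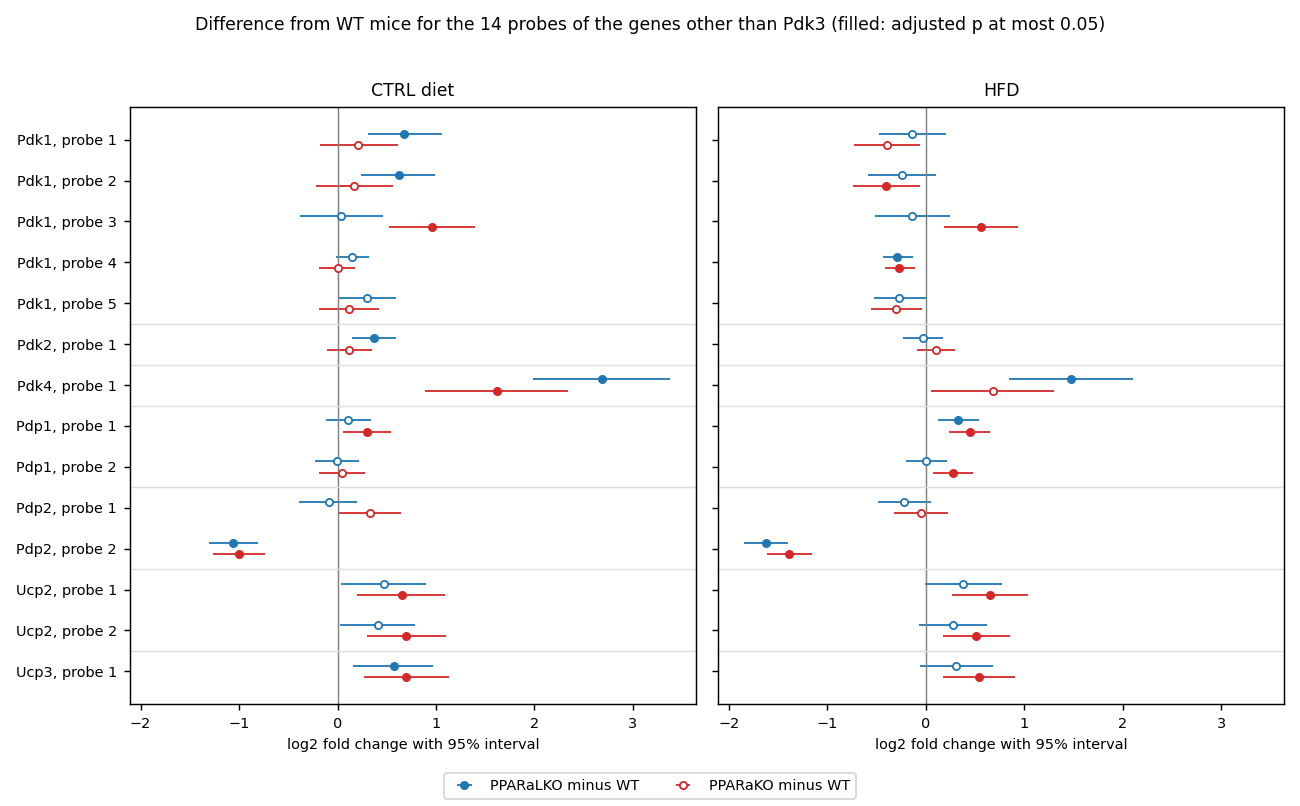
Difference of PPARaLKO and PPARaKO mice from WT mice on each diet for the 14 probes of the genes other than Pdk3, which was near background, as log2 fold change with its 95% interval; filled points passed an adjusted p of at most 0.05, and the probes of a gene are numbered by falling mean signal. Pdk4 in PPARaLKO mice reached 2.69 on the CTRL diet, and the second Pdp2 probe was lower in both mutants on both diets, down to −1.62 in PPARaLKO mice on the HFD.

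Pdp2, a phosphatase that reactivates the complex, was lower in both mutants than in WT mice on its unique probe, on both diets. WT mice ran from 10.63 to 11.37 on the CTRL diet (median 10.89) and from 10.44 to 11.35 on the HFD (median 11.20). PPARaLKO mice ran from 9.75 to 10.05 (median 9.82) on the CTRL diet and from 9.20 to 10.29 (median 9.54) on the HFD, and PPARaKO mice from 9.63 to 10.31 (median 9.94) and from 9.42 to 10.12 (median 9.72). No mutant mouse reached any WT mouse on either diet. Against WT mice on the CTRL diet, PPARaLKO mice had a log2 fold change of −1.06 (SE 0.12, adjusted p = 1.54e-08), and PPARaKO mice were 2-fold below WT mice (SE 0.13 on the log2 scale, adjusted p = 2.75e-08). On the HFD the log2 fold change was −1.62 in PPARaLKO mice (SE 0.11, adjusted p = 3.12e-15) and −1.39 in PPARaKO mice (SE 0.11, adjusted p = 3.18e-14). Among all probes tested, 1.31% (PPARaLKO) and 6.15% (PPARaKO) did not overlap with WT mice on the CTRL diet, and 1.44% and 6.93% on the HFD. The mutants did not differ by a called amount, with 0.06 (95% interval −0.17 to 0.30) on the CTRL diet and 0.24 (95% interval 0.03 to 0.45, adjusted p = 0.078) on the HFD. These 4 losses were called under each of the 12 other settings, between −0.97 and −1.75, and within wash batches 1 and 2 they were −0.97 and −1.19 for PPARaLKO mice and −0.99 and −1.04 for PPARaKO mice on the CTRL diet.

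The Pdp2 repeat probe gave another picture. It was at 16.60 to 17.45 in WT CTRL mice (median 17.14), at 16.45 to 17.30 in PPARaLKO CTRL mice (median 16.96) and at 16.98 to 17.93 in PPARaKO CTRL mice (median 17.36), so that the ranges of the 3 genotypes overlapped. Its difference from WT mice was −0.09 in PPARaLKO mice (adjusted p = 0.708) and 0.33 in PPARaKO mice (adjusted p = 0.0973) on the CTRL diet. On the HFD it fell in PPARaKO mice to 16.22 to 16.94 (log2 fold change −0.74, SE 0.13, adjusted p = 0.000103), with every HFD mouse below every CTRL mouse, as for 1.44% of all probes tested. With the wash batch difference taken out these groups overlapped, since PPARaKO HFD replicates 6 and 2 were at 17.01 and 17.00 and PPARaKO CTRL replicate 2 at 16.92. The repeat probe also fell in PPARaLKO mice (log2 fold change −0.48, SE 0.13, adjusted p = 0.0062), a call lost without array weights (adjusted p = 0.0932) and within each wash batch (adjusted p = 0.0541 and 0.181), while the response of WT mice was −0.36 (SE 0.15, adjusted p = 0.0935).

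The 21 probes with a long run of alternating T and G, the Pdp2 repeat probe among them, moved together. All 21 were called lower on the HFD in PPARaLKO mice (median −0.48) and in PPARaKO mice (median −0.83), where 20.2% and 24.8% of all probes were called in either direction, and 2 of 21 were lower in WT mice (median −0.34), beside 18.7%. All 21 were also higher in PPARaKO than in PPARaLKO mice on the CTRL diet (median 0.48), beside 25.2% of all probes called. Over the 48 mice the repeat probe followed the median of the other 20 with r = 0.993, and with r = 0.988 after group means were taken out. The unique probe followed the same median with r = 0.247 and 0.455, and both Pdp2 probes followed each other with r = 0.261 and 0.449. These points share arrays and probe composition, and the part of the repeat in the repeat probe's signal was not tested. Changes given for Pdp2 by its highest signal are therefore those of a probe that moved with other probes of the same repeat.

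**Figure D3:**
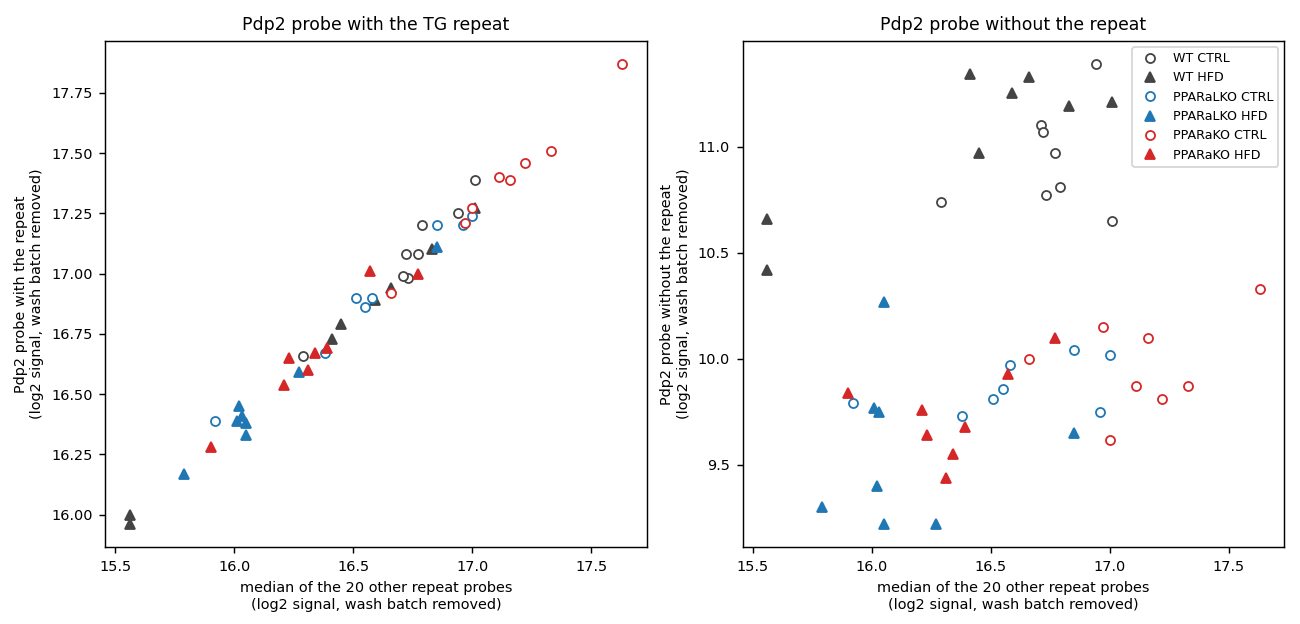
Log2 signal of the Pdp2 repeat probe (left) and unique probe (right) against the median of the 20 other repeat probes, 1 point per mouse with the wash batch difference taken out. The repeat probe follows the line of the other repeat probes (r = 0.993), and on the unique probe the WT mice lie above the mutants (r = 0.247).

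Pdk1, a kinase that is widely expressed and known as a target of hypoxia signalling, was higher in PPARaLKO than in WT mice on the CTRL diet and fell on the HFD in PPARaLKO mice. Its first probe was at 10.67 to 12.68 in WT CTRL mice (median 12.31), at 11.03 to 13.46 in PPARaLKO CTRL mice (median 12.95) and at 12.00 to 12.66 in PPARaLKO HFD mice (median 12.47). The ranges overlapped, and the lowest mouse of each of these CTRL groups was the one whose array had the lowest weight. The PPARaLKO CTRL mice were 1.6-fold above WT mice (log2 fold change 0.68, SE 0.19, adjusted p = 0.00542) and 0.66 above them on the log2 scale without these 2 arrays (adjusted p = 0.00287). PPARaKO CTRL mice, at 12.18 to 12.81, were not called different from WT mice (log2 fold change 0.21, SE 0.19, adjusted p = 0.431), and they were below PPARaLKO mice (log2 fold change −0.47, SE 0.17, adjusted p = 0.0432). Without array weights the excess over WT mice was still 0.68, at an adjusted p of 0.0662, and that of PPARaLKO over PPARaKO mice was not called (log2 fold change −0.25, adjusted p = 0.564). The latter was lost in 6 of the 12 other settings, and within wash batches 1 and 2 it was −0.24 and −0.60. The excess over WT mice was 0.42 within wash batch 1, which was not called (adjusted p = 0.387), and 0.88 within wash batch 2.

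The HFD lowered Pdk1 in PPARaLKO mice (log2 fold change −0.57, SE 0.16, adjusted p = 0.0108), in 8 of 8 mice relative to the CTRL mean. This call was lost without array weights (−0.36, adjusted p = 0.55), without the filter on dim probes (adjusted p = 0.0603) and within wash batches 1 and 2 (−0.47 and −0.57, adjusted p = 0.28 and 0.1). In WT mice, at 11.19 to 12.98 on the HFD, the response was 0.26 (SE 0.19, adjusted p = 0.403), and in PPARaKO mice it was −0.35 (SE 0.17, adjusted p = 0.125). In PPARaKO mice the third and the fifth probe were called lower on the HFD (−0.51 and −0.36, adjusted p = 0.0451 and 0.0435), although 7 and 6 of the 12 other settings did not call them, and the responses of both mutants did not differ by a called amount on any Pdk1 probe. The WT response exceeded that of PPARaLKO mice by 0.82 (95% interval 0.32 to 1.33, adjusted p = 0.0292), and the difference was 0.56 and 1.03 within wash batches 1 and 2, neither of which was called (adjusted p = 0.388 and 0.145). The second probe, at chr2:71739688-71739747, gave 0.86 (adjusted p = 0.0234), and the fourth, at chr2:71713523-71713582, gave 0.44 (adjusted p = 0.0133). Of the 12 other settings, 6 did not call the second probe and 5 did not call the fourth. The fifth probe gave 0.56, which was not called (adjusted p = 0.0579). The first 2 probes followed each other with r = 0.964 over the 48 mice. The response difference on the first probe was also not called without array weights (0.63, adjusted p = 0.465), without the filter on dim probes (adjusted p = 0.125) and with the replicate block (adjusted p = 0.0626). Between PPARaKO and WT mice on the HFD the first probe gave −0.39, just short of a call (adjusted p = 0.05) that 6 of the 12 other settings made, while the second was called at −0.40 (adjusted p = 0.046) and the fourth at −0.27 (adjusted p = 0.00401). The second lost this call in 7 of the 12 other settings, in which the smallest difference was −0.17, and the fourth without array weights, without the wash term and within wash batch 1. The fourth probe was also lower in PPARaLKO than in WT mice on the HFD (−0.29, adjusted p = 0.0053), a call that 4 of the 12 other settings did not make.

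The third Pdk1 probe, which the files assign to another transcript (ENSMUST00000148249), behaved differently. It was at 6.42 to 8.03 in WT CTRL mice (median 7.14), at 6.22 to 7.75 in PPARaLKO CTRL mice (median 7.29) and at 7.78 to 9.22 in PPARaKO CTRL mice (median 8.27). Thus PPARaKO mice stood above all PPARaLKO mice and overlapped the top of the WT range, whereas WT and PPARaLKO mice covered the same range. PPARaKO mice exceeded WT mice 1.94-fold (log2 fold change 0.96, SE 0.22, adjusted p = 0.000547) and PPARaLKO mice 1.89-fold (log2 fold change 0.92, SE 0.20, adjusted p = 0.000339) on the CTRL diet, where 4.43% of probes tested did not overlap between both mutants. On the HFD the excess was 0.56 over WT mice (adjusted p = 0.0137) and 0.70 over PPARaLKO mice (adjusted p = 0.00202). Within wash batches 1 and 2 these were 0.88 and 0.28 over WT mice and 0.92 and 0.45 over PPARaLKO mice, and neither was called within wash batch 2 (adjusted p = 0.369 and 0.218). Both CTRL diet differences were called under each of the 12 other settings, between 0.73 and 1.33. The difference of this probe between the HFD responses of WT and PPARaLKO mice was 0.18 (adjusted p = 0.73).

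Pdk2, a kinase that is active in the liver in fed and fasted animals, changed little. Its probe, at chr11:94887669-94887728, was at 11.62 to 12.42 in WT CTRL mice (median 12.10), and the medians of the other 5 groups were 12.24 to 12.55, with overlapping ranges. It was 1.29-fold higher in PPARaLKO than in WT mice on the CTRL diet (log2 fold change 0.37, SE 0.11, adjusted p = 0.00978) and rose 1.2-fold on the HFD in PPARaKO mice (log2 fold change 0.27, SE 0.10, adjusted p = 0.0451). The HFD response of WT mice was as large in its estimate, 0.28 (SE 0.11, adjusted p = 0.0767), and that of PPARaLKO mice was −0.12 (adjusted p = 0.388), with unweighted means of 12.40 on the CTRL diet and 12.43 on the HFD. Both called changes were lost without array weights, at adjusted p of 0.149 and 0.173. The rise in PPARaKO mice was lost in 6 of the 12 other settings, at 0.16 within wash batch 1 (adjusted p = 0.54), and the excess of PPARaLKO mice was 0.60 and 0.22 within wash batches 1 and 2, the second of which was not called (adjusted p = 0.302).

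Pdk3, a kinase on the X chromosome known mainly from testis and brain, was near background. Its first probe, at chrX:91009951-91010010, passed the filter through mutant groups alone and was above background on 2 of 8 WT CTRL arrays, 1 of 8 WT HFD arrays and 7 of 8 PPARaKO HFD arrays. The signal was 5.28 to 6.30 in WT HFD mice (median 5.57), 5.46 to 6.18 in PPARaLKO HFD mice (median 5.80) and 5.64 to 6.68 in PPARaKO HFD mice (median 6.11), with overlap throughout. It was above background on 4 and 6 of 8 PPARaLKO arrays on the CTRL diet and the HFD and on 3 of 8 PPARaKO CTRL arrays. The fitted differences from WT mice on the HFD were 0.59 in PPARaKO mice and 0.31 in PPARaLKO mice, and the HFD response of PPARaKO mice was 0.30. These values are set against groups in which 1 and 3 of 8 arrays detected the probe, and the probe was tested only because it was detected in the groups with higher signal, so they are given as descriptions. Between the mutants on the HFD, where 7 and 6 of 8 arrays detected it, PPARaKO mice were above PPARaLKO mice by 0.28 (SE 0.11, adjusted p = 0.0395), and 6 of the 12 other settings, each wash batch among them, did not call this. Over the 48 mice this probe followed the mean of 10 macrophage and Kupffer cell markers with r = 0.65, and 0.553 with group means taken out. The second Pdk3 probe was well above background on 0 of 8 WT HFD arrays, and no fold against that group is given for it.

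Pdp1, the calcium-dependent phosphatase, was slightly higher in the mutants on the HFD by its first probe. This probe was at 6.04 to 7.07 in WT HFD mice (median 6.36), at 6.18 to 6.79 in PPARaLKO HFD mice (median 6.55) and at 6.33 to 6.91 in PPARaKO HFD mice (median 6.78), so that all groups overlapped. The difference from WT mice was 0.33 in PPARaLKO mice (SE 0.10, adjusted p = 0.0144) and 0.45 in PPARaKO mice (SE 0.10, adjusted p = 0.000344). On the CTRL diet PPARaKO mice were also above WT mice (log2 fold change 0.30, SE 0.12, adjusted p = 0.0423), and PPARaLKO mice differed by 0.11 (adjusted p = 0.535). The HFD changed Pdp1 in no genotype by a called amount, with responses of −0.05 in WT, 0.17 in PPARaLKO and 0.09 in PPARaKO mice. The unweighted group means ran the other way in WT mice (6.44 on the CTRL diet and 6.46 on the HFD) and in PPARaLKO mice (6.59 and 6.57). All 3 calls on this probe were lost without array weights, at 0.12 in PPARaLKO mice (adjusted p = 0.667) and 0.29 in PPARaKO mice (adjusted p = 0.117) on the HFD and at 0.22 in PPARaKO mice on the CTRL diet (adjusted p = 0.255). The PPARaLKO call was also lost without the filter, without the wash term and within wash batch 1, and the PPARaKO call on the CTRL diet without the filter, with the slide as a block and within wash batch 1. The second Pdp1 probe, detected on 4 of 8 WT HFD arrays, gave 0.00 in PPARaLKO mice (adjusted p = 0.982) and 0.28 in PPARaKO mice (adjusted p = 0.0221) against WT mice on the HFD. The first probe followed the mean of 10 macrophage and Kupffer cell markers with r = 0.585, and 0.547 with group means taken out. These markers were also higher in both mutants on the HFD, and their part in the Pdp1 result was not tested.

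Ucp2 and Ucp3 rose on the HFD in all 3 genotypes. Ucp2 was at 7.53 to 9.12 in WT CTRL mice (median 7.94) and at 7.52 to 9.95 in WT HFD mice (median 8.63). It was at 8.07 to 9.49 (median 8.35) and 8.36 to 9.38 (median 8.95) in PPARaLKO mice on the CTRL diet and the HFD, and at 7.87 to 9.44 (median 8.44) and 8.61 to 9.52 (median 9.35) in PPARaKO mice. The diets overlapped in each genotype, and in PPARaKO mice 8 of 8 HFD mice exceeded the CTRL mean. The rise of Ucp2 was 1.62-fold in WT mice (log2 fold change 0.69, SE 0.22, adjusted p = 0.0212), 1.52-fold in PPARaLKO mice (log2 fold change 0.60, SE 0.19, adjusted p = 0.0182) and 1.62-fold in PPARaKO mice (log2 fold change 0.70, SE 0.19, adjusted p = 0.00687). The second Ucp2 probe rose by 0.85, 0.71 and 0.65 (adjusted p = 0.00156, 0.00185 and 0.00457).

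Ucp3 was at 7.18 to 8.54 in WT CTRL mice (median 7.50) and at 7.03 to 9.40 in WT HFD mice (median 8.49). It was at 7.53 to 8.97 (median 8.35) and 7.87 to 9.19 (median 8.56) in PPARaLKO mice, and at 7.40 to 9.29 (median 8.01) and 8.19 to 9.25 (median 8.94) in PPARaKO mice. The WT CTRL mice were the lowest group by median and the PPARaKO HFD mice the highest, with overlap between neighbours. The HFD raised Ucp3 1.75-fold in WT mice (log2 fold change 0.81, SE 0.21, adjusted p = 0.00446), 1.47-fold in PPARaLKO mice (log2 fold change 0.55, SE 0.18, adjusted p = 0.0222) and 1.57-fold in PPARaKO mice (log2 fold change 0.65, SE 0.19, adjusted p = 0.00828). The HFD responses of Ucp2 and Ucp3 did not differ by a called amount between genotypes. For Ucp2 the WT response exceeded that of PPARaLKO mice by 0.09 (95% interval −0.49 to 0.67) and that of PPARaKO mice by −0.01 (95% interval −0.60 to 0.58), and for Ucp3 by 0.26 (95% interval −0.30 to 0.81) and 0.16 (95% interval −0.40 to 0.72). Without array weights the rise of Ucp2 was 0.59, 0.41 and 0.70 in WT, PPARaLKO and PPARaKO mice (adjusted p = 0.119, 0.452 and 0.0587). The WT rise of Ucp2 lost its call in 5 of the 12 other settings, each wash batch among them, and the PPARaKO rise was 1.01 and 0.46 within wash batches 1 and 2, the second of which was not called (adjusted p = 0.138). The PPARaLKO rise of Ucp2 was not called in 4 settings, which were those without weights, without the filter, without the wash term and within wash batch 1. The rise of Ucp3 in WT mice was called without weights and not within wash batch 1 (0.87, adjusted p = 0.0774). Without weights the rise of Ucp3 was 0.36 in PPARaLKO mice (adjusted p = 0.503) and 0.66 in PPARaKO mice (adjusted p = 0.0607), where it was also not called within wash batch 2 (0.43, adjusted p = 0.173). In PPARaLKO mice Ucp3 lost its call in 5 of the 12 other settings, among them the fit without the wash term (0.32, adjusted p = 0.329).

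The genotype differences of both genes were of similar size. On the CTRL diet PPARaKO mice exceeded WT mice by 0.65 for Ucp2 (SE 0.22, adjusted p = 0.0207) and by 0.70 for Ucp3 (SE 0.21, adjusted p = 0.00826). PPARaLKO mice exceeded WT mice by 0.57 for Ucp3 (SE 0.20, adjusted p = 0.0354), and by 0.47 for Ucp2 (SE 0.21, adjusted p = 0.101). On the HFD the PPARaKO excess was 0.65 for Ucp2 (SE 0.19, adjusted p = 0.0046) and 0.54 for Ucp3 (SE 0.18, adjusted p = 0.0136), and the PPARaLKO differences of 0.38 and 0.31 were not called. These differences were smaller within wash batch 1 than within wash batch 2. On the CTRL diet the PPARaKO excess was 0.28 and 1.07 for Ucp2 and 0.43 and 1.06 for Ucp3, and the PPARaLKO excess 0.31 and 0.78 for Ucp3. On the HFD the PPARaKO excess was 0.40 and 0.81 for Ucp2 and 0.49 and 0.56 for Ucp3, and the PPARaLKO differences were −0.05 and 0.67 for Ucp2 and 0.03 and 0.48 for Ucp3. None of the 5 calls was made within wash batch 1 or without array weights, and within wash batch 2 the PPARaLKO difference of Ucp2 on the HFD was called (adjusted p = 0.035).

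The signals of Ucp2 and Ucp3 followed each other closely, with r = 0.974 over the 48 mice and 0.964 after group means were taken out. The second Ucp2 probe followed the Ucp3 probe with r = 0.967. The genes lie side by side on chromosome 7 with 0 protein-coding genes between them, and their probes are the sequences printed above. Both also followed the mean of 10 macrophage and Kupffer cell markers, Ucp2 with r = 0.768 (0.658 with group means taken out) and Ucp3 with r = 0.771 (0.683). Pdk1 ran against the same mean (r = −0.325 and −0.527). Pdk2, Pdk4 and the Pdp2 repeat probe had r of 0.123, 0.357 and −0.306, and of −0.307, 0.105 and −0.141 with group means taken out. All points are mice measured on the same arrays, and these values are descriptions.

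The macrophage markers themselves differed between the groups. The median of their mean log2 signal was 10.53 in WT CTRL mice (10.15 to 11.32), 10.75 in WT HFD mice (9.71 to 11.97), 11.10 in PPARaLKO CTRL mice (10.84 to 11.47), 11.42 in PPARaLKO HFD mice (10.84 to 12.01), 11.13 in PPARaKO CTRL mice (10.59 to 11.58) and 12.05 in PPARaKO HFD mice (11.36 to 12.31). Of the 10 markers, 9 were higher in PPARaKO and 7 in PPARaLKO mice than in WT mice on the HFD, beside 24.1% and 14.6% of all gene names, and 5 and 2 on the CTRL diet, beside 16.9% and 12.3%. The HFD raised 8 of 10 in PPARaKO mice and 4 of 10 in PPARaLKO mice, where 26.4% and 22.5% of all gene names were called in either direction. In WT mice limma called 0 of 10 on the HFD, beside 19.5% of all gene names, and 0 had an unadjusted p under 0.05. All 10 were above background, Timd4 on 46 arrays and the others on 48. In whole liver, more cells of a type and more RNA per cell cannot be told apart, and the part of macrophages in the signals of Ucp2, Ucp3, Pdk3 and Pdp1 was not tested. The muscle markers Ckm, Acta1 and Myh1 were above background on 3, 6 and 3 of 48 arrays and Actn3 on 0, whereas Myh4, Mylpf and Tnnt3 were on 40, 47 and 48. The group medians of the 3 muscle markers tested were 6.30 to 6.42, and the HFD called 0 of 3 in each genotype. The adipocyte markers Adipoq and Plin1 were above background on 2 and 6 arrays. The 3 adipocyte markers tested had a median of 9.15 in WT HFD mice and of 6.21 to 7.01 in the other groups. The HFD called Cfd alone of the 3 higher in WT mice, and the median change of the 3 was 0.06. Against WT mice, Cfd was lower in PPARaKO mice on both diets and in PPARaLKO mice on the HFD. Retn was lower in PPARaKO mice on the HFD. The medians of 6 lymphocyte markers were 8.02 to 8.59, and the HFD called Cd3e lower in PPARaKO mice and 0 of 6 in the other genotypes. What these markers share with the results of Ucp2 and Ucp3 was not tested. Ucp1, the uncoupling protein of brown fat, was above background on 0 of 48 arrays.

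**Figure D4:**
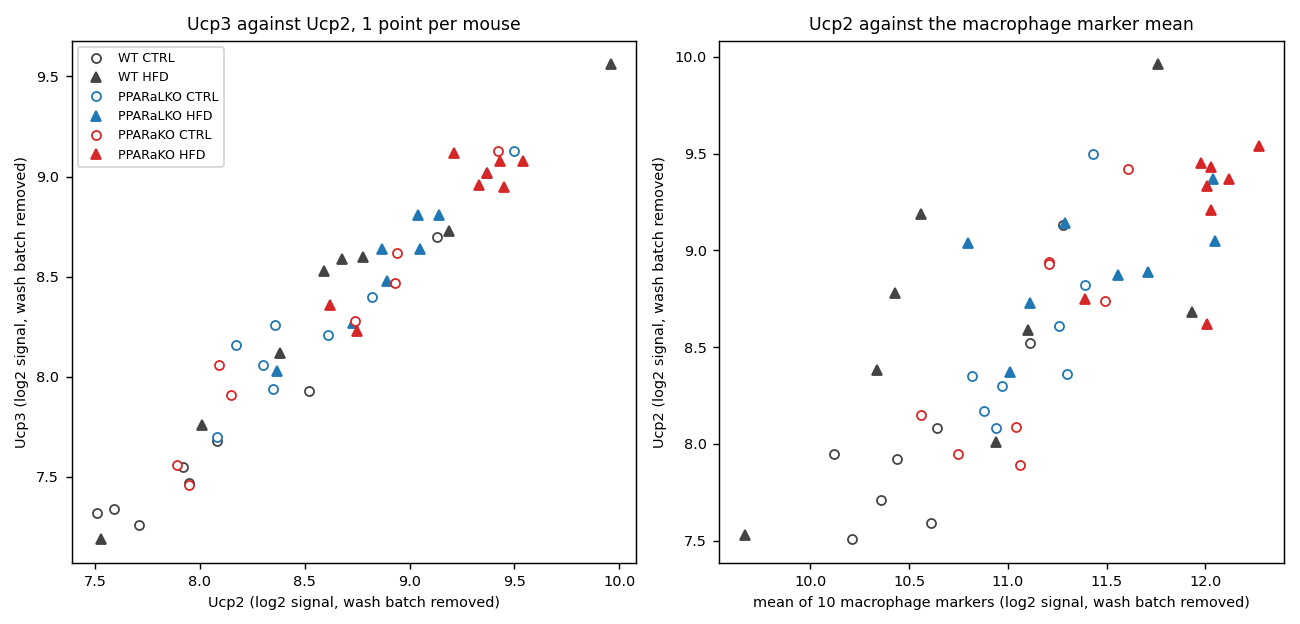
Left, log2 signal of Ucp3 against that of Ucp2, and right, Ucp2 against the mean of 10 macrophage markers, 1 point per mouse with the wash batch difference taken out. Ucp3 follows Ucp2 in all 6 groups (r = 0.974), and the relation of Ucp2 to the markers has r = 0.768.

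Across the 8 genes, the HFD called 2 in WT mice (Ucp2 and Ucp3), against 19.5% of all gene names tested. It called 4 in PPARaLKO mice (Ucp2 and Ucp3 higher, Pdk1 and Pdp2 lower), against 22.5%, and 5 in PPARaKO mice (Pdk2, Pdk3, Ucp2 and Ucp3 higher, Pdp2 lower), against 26.4%. Pdk3 counts here by its dim probe, against a group in which 3 of 8 arrays detected it, and Pdp2 by its repeat probe. The unique Pdp2 probe fell on the HFD in PPARaLKO mice (log2 fold change −0.43, SE 0.11, adjusted p = 0.00381) and gave 0.13 in WT mice (adjusted p = 0.532) and −0.26 in PPARaKO mice (adjusted p = 0.0915). The difference of this probe between WT and PPARaLKO mice in the HFD response was called (0.56, 95% interval 0.23 to 0.90, adjusted p = 0.0247), and 6 of the 12 other settings did not call it. The median response of the members was 0.27 in WT, 0.02 in PPARaLKO and 0.18 in PPARaKO mice, beside 0.00, −0.01 and −0.01 for all gene names.

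**Figure D5:**
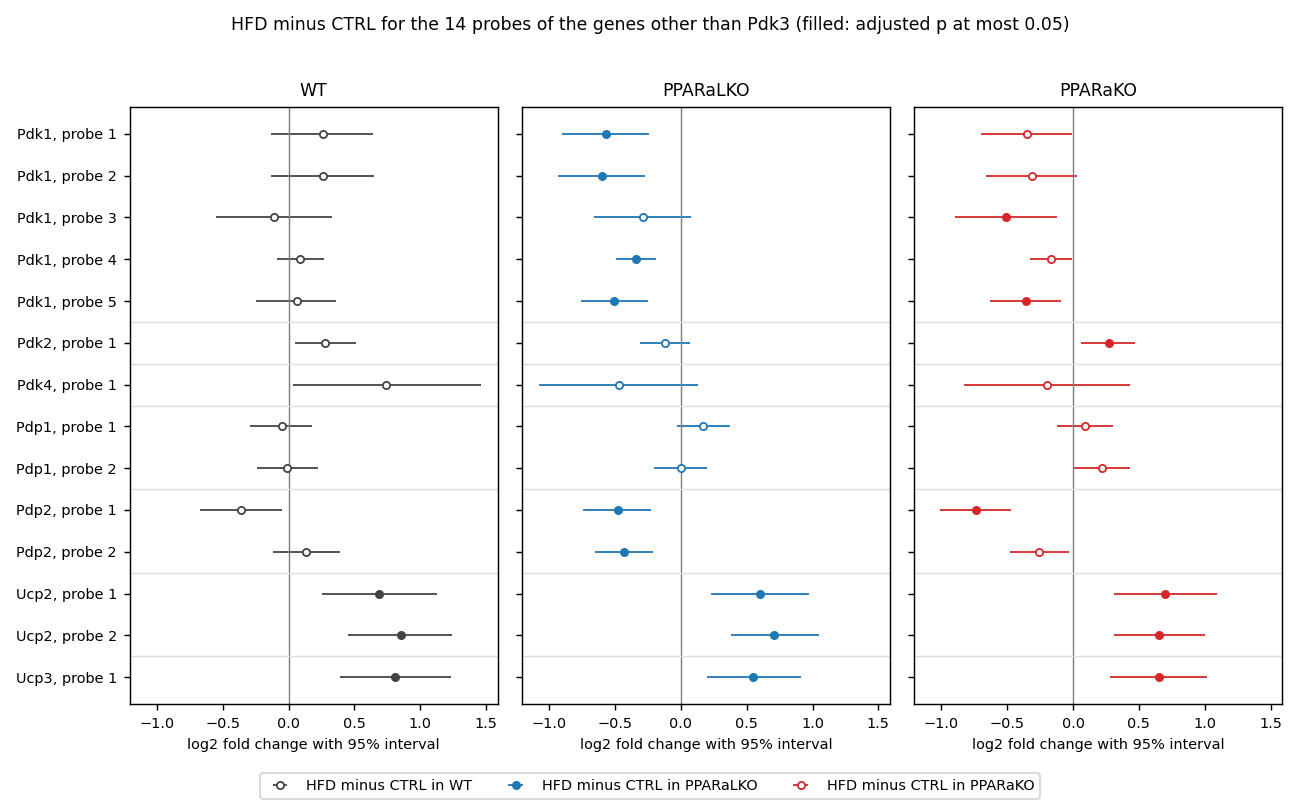
HFD response in each genotype of the 14 probes of the genes other than Pdk3, as log2 fold change (HFD minus CTRL) with its 95% interval; filled points passed an adjusted p of at most 0.05. The 3 Ucp2 and Ucp3 probes are filled in every genotype, from 0.55 to 0.85, and 4 of 5 Pdk1 probes are filled and below 0 in PPARaLKO mice.

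Between genotypes on the CTRL diet, 4 members were called higher in PPARaKO than in WT mice (Pdk4, Pdp1, Ucp2 and Ucp3), where 16.9% of all gene names were higher and 35.3% were called in either direction. In PPARaLKO mice 4 were called higher than in WT mice (Pdk1, Pdk2, Pdk4 and Ucp3), against 12.3% higher and 25.2% in either direction. Both comparisons share the WT mice. Between PPARaKO and PPARaLKO mice on the CTRL diet 3 members were called, Pdp2 by its repeat probe higher and Pdk1 and Pdk4 lower, against 26.6% of gene names. On the HFD 4 members were higher in PPARaKO than in WT mice (Pdk3, Pdp1, Ucp2 and Ucp3), against 24.1% higher and 47.8% in either direction, and 3 were higher in PPARaLKO than in WT mice (Pdk3, Pdk4 and Pdp1), against 14.6% and 28.6%. Both Pdk3 calls against WT mice are those of the dim probe that 1 of 8 WT HFD arrays detected. Between the mutants on the HFD 2 were called, Pdk3 higher and Pdk4 lower in PPARaKO mice, against 31.9%. No member was called lower than in WT mice by its probe of highest signal, beside 18.4% (PPARaKO) and 12.9% (PPARaLKO) of gene names on the CTRL diet and 23.7% and 14.0% on the HFD, whereas the Pdp2 unique probe was lower in all 4 comparisons.

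The HFD responses of the genotypes were also compared with each other. Pdk1 was called between WT and PPARaLKO mice, 1 of 8 genes, against 11.2% of all gene names. Between WT and PPARaKO mice limma called 0 of 8 genes, against 15.5%, and 2 had an unadjusted p under 0.05 (Pdk1 and Pdk3). Between PPARaLKO and PPARaKO mice it called 0 of 8, against 3.93%, and 1 had an unadjusted p under 0.05, which was Pdk2.

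The pyruvate dehydrogenase complex that these enzymes regulate was measured by 8 genes with the mitochondrial pyruvate carrier. On the HFD 3 were higher in WT mice (Dld, Mpc1 and Mpc2), 2 in PPARaLKO mice (Dld and Mpc1) and 3 in PPARaKO mice (Pdha1, Dld and Mpc1), where Pdhx was lower. Of all gene names, 19.5%, 22.5% and 26.4% were called in either direction in these comparisons. Mpc1, a subunit of the carrier that imports pyruvate, rose by 0.52 in WT mice (adjusted p = 0.000527), by 0.51 in PPARaLKO mice (adjusted p = 9.42e-05) and by 0.68 in PPARaKO mice (adjusted p = 2.89e-06). Its median went from 14.84 to 15.28 in WT mice, from 15.02 to 15.48 in PPARaLKO mice and from 15.04 to 15.66 in PPARaKO mice. Mpc2, the partner subunit, rose by 0.22 in WT mice (adjusted p = 0.0162).

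On the CTRL diet 3 of the 8 genes were called in PPARaKO against WT mice, all lower (Pdha1, Pdhb and Dld), beside 35.3% of all gene names. In PPARaLKO mice 1 was called, higher (Pdha1), beside 25.2%. On the HFD 6 were lower in PPARaKO than in WT mice (Pdha1, Pdhb, Dlat, Dld, Pdhx and Pdpr) and Mpc1 was higher, beside 47.8% of all gene names called, and in PPARaLKO mice 1 was lower (Pdpr), beside 28.6%. Pdhb, the E1 beta subunit, was at 13.62 to 14.32 in WT CTRL mice, at 13.40 to 14.04 in PPARaLKO CTRL mice and at 11.86 to 12.70 in PPARaKO CTRL mice, a difference of −1.88 between PPARaKO and WT mice (SE 0.12, adjusted p = 1.57e-17). Its probes disagreed, since a second Pdhb probe gave −0.84 (adjusted p = 4.74e-05) and the third 0.17 (adjusted p = 0.308). Pdha1, the E1 alpha subunit that the Pdk kinases phosphorylate, was −0.28 in PPARaKO mice (adjusted p = 0.00342) and 0.21 in PPARaLKO mice (adjusted p = 0.0367) against WT mice. The median difference of the list was −0.10 and 0.08, beside −0.01 and 0.00 for all gene names.

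Among 9 genes for other fates and sources of pyruvate, 3 rose on the HFD in WT mice (Pcx, Gpt and Gpt2). In PPARaLKO mice 4 rose (Pcx, Pkm, Ldha and Gpt) and in PPARaKO mice 3 (Pcx, Pkm and Ldha), and Me1 fell in both, beside 19.5%, 22.5% and 26.4% of all gene names called in either direction. Me1, the cytosolic malic enzyme of lipogenesis, fell by 1.28 in PPARaLKO mice (adjusted p = 0.0084) and by 1.58 in PPARaKO mice (adjusted p = 0.00168), and it was lower by 1.88 in PPARaKO than in WT mice on the CTRL diet (log2 fold change −1.88, SE 0.42, adjusted p = 0.000457). In WT mice the mean of Me1 was 13.07 on the CTRL diet and 12.30 on the HFD, which was not called. The Me1 responses of the genotypes did not differ by a called amount. Pkm, the pyruvate kinase of tissues other than liver, rose by 0.70 in PPARaLKO mice (adjusted p = 0.00237) and by 0.72 in PPARaKO mice (adjusted p = 0.00226). Pklr, the liver pyruvate kinase, was higher in PPARaLKO than in WT mice on the CTRL diet (log2 fold change 0.63, adjusted p = 0.0363). Ldha, a lactate dehydrogenase subunit, was lower in both mutants than in WT mice on the CTRL diet, by −0.63 in PPARaKO mice (adjusted p = 2.46e-09) and −0.37 in PPARaLKO mice (adjusted p = 0.000112), and rose on the HFD in both, by 0.50 and 0.41.

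The branched-chain ketoacid dehydrogenase, a sister complex with its own kinase and phosphatase, was measured by 5 genes. On the HFD 3 rose in WT mice (Bckdha, Bckdhb and the kinase gene Bckdk), 1 in PPARaLKO mice (Bckdhb, with Dbt lower) and 2 in PPARaKO mice (Bckdha and Bckdhb), with the same shares of all gene names called. Bckdhb, the E1 beta subunit, was higher by 1.15 in PPARaKO than in WT mice on the CTRL diet (adjusted p = 2.95e-18) and by 0.17 in PPARaLKO mice (adjusted p = 0.0597). Bckdk gave a rise of 0.32 in WT mice (adjusted p = 0.00068), whereas it was at 0.08 in PPARaLKO mice (adjusted p = 0.346) and 0.04 in PPARaKO mice (adjusted p = 0.649). The difference of Bckdk between the WT and PPARaKO responses was called (0.28, adjusted p = 0.0355), and that between the WT and PPARaLKO responses was not (0.24, adjusted p = 0.073).

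Of 10 other mitochondrial carriers near the uncoupling proteins, 8 were tested and Ucp1 and Slc25a31 fell below the filter. On the CTRL diet 3 of 8 were lower in PPARaKO than in WT mice (Slc25a27, Slc25a30 and Slc25a20) and 3 in PPARaLKO mice (Slc25a14, Slc25a30 and Slc25a20), beside 18.4% and 12.9% of all gene names. Slc25a11 was higher in both mutants (0.33 in PPARaKO mice, adjusted p = 0.000219, and 0.37 in PPARaLKO mice, adjusted p = 4.73e-05), and Slc25a5 in PPARaLKO mice (0.28, adjusted p = 0.000296). Slc25a30, the kidney mitochondrial carrier, was at 8.52 to 10.39 in WT CTRL mice, at 7.36 to 8.51 in PPARaLKO CTRL mice and at 6.89 to 7.64 in PPARaKO CTRL mice. Its differences from WT mice were −1.77 (SE 0.19, adjusted p = 3.70e-09) and −2.48 (SE 0.20, adjusted p = 9.78e-14). Slc25a20, the carnitine-acylcarnitine carrier of fatty acid oxidation, was lower by −1.08 in PPARaLKO mice (adjusted p = 1.14e-07) and −1.83 in PPARaKO mice (adjusted p = 2.50e-14), and rose on the HFD by 0.78, 0.71 and 0.73 in WT, PPARaLKO and PPARaKO mice. Slc25a27, also named Ucp4, rose on the HFD in PPARaKO mice alone of the 3 genotypes by call (log2 fold change 0.92, adjusted p = 7.77e-07), and the difference from the WT response was called (−0.86, adjusted p = 0.00124). Its probe was above background on 3 of 8 PPARaKO CTRL arrays and on 8 of 8 in every other group. These values and its lower signal in PPARaKO than in WT mice thus rest on a group near background. Slc25a10, the dicarboxylate carrier, rose by 0.83 in WT mice (adjusted p = 6.25e-05) and by 0.43 in PPARaLKO mice (adjusted p = 0.0109). The HFD lowered Slc25a30 in WT mice (log2 fold change −0.67, adjusted p = 0.0147) and raised it in PPARaKO mice (log2 fold change 0.70, adjusted p = 0.00331), and these responses differed (−1.36, adjusted p = 0.000559).

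The gene names whose signal was most like that of each member over the 48 mice, with the wash batch difference taken out, were listed without a test. For Pdk1 they included Pklr, the liver pyruvate kinase (r = 0.849, and 0.919 with group means taken out), and Khk, the ketohexokinase of fructose breakdown (0.838 and 0.896). For Pdk4 the closest with a gene symbol were Insig2, an endoplasmic reticulum protein that restrains cholesterol synthesis (0.822 and 0.809), and Serpinb6b (0.799 and 0.635). For Ucp2, after Ucp3, they were Hcls1 (0.925 and 0.907) and Fcer1g, the common gamma chain of Fc receptors (0.921 and 0.936), and for Ucp3, after Ucp2, Syk, a kinase of immune receptors (0.912 and 0.906), and Hcls1 (0.906 and 0.895). Hcls1 encodes a protein of blood cells. For Pdk2 they were Ift52 and Snx9 (0.803 each), for Pdk3 Ppfia4 (0.821) and for Pdp1 Adgrl1 (0.806). For the Pdp2 repeat probe they were Hs3st2 and Eya1 (0.994 and 0.993). Among the members, Pdk3 ran with Ucp2 (r = 0.658, and 0.628 with group means taken out), with Ucp3 (0.636 and 0.63) and with Pdp1 (0.549 and 0.477). Pdp1 ran with Ucp2 (0.518 and 0.486) and Ucp3 (0.513 and 0.495), against Pdk1 (−0.544 and −0.67) and against Pdk2 (−0.459 and −0.705). The Pdp2 repeat probe ran against Ucp2 (−0.587 and −0.551) and Ucp3 (−0.577 and −0.519), and Pdk1 ran with Pdk2 (0.52 and 0.582). All these values rest on 48 mice that share groups and arrays.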

How the data were processed

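Liver RNA of 48 mice was hybridised on single-colour Agilent arrays, and the positions of the probes in the deposited files refer to mm9. The authors extracted spot intensities with Agilent Feature Extraction 10.10.1.1, and the deposited intensity values used here are the median signals of each spot. The authors also deposited a log2 table made after filtering, quantile normalization and correction for the wash, and its 32815 probes in common with the values computed here had r of at least 0.999 per array. No p-values of the authors were used.

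Outlier spots were left out, median signals were turned into log2 values with a pseudocount of 0, spots of a probe were averaged, probes well above background on fewer than 4 of 8 arrays in every group were left out, and arrays were quantile normalized. Limma 3.58.1 in R 4.3.3 was fitted to all 6 groups with the wash batch as a term and array weights, so that all groups shared 1 estimate of the spread. P-values were adjusted by Benjamini-Hochberg within each comparison. The 195 missing values were left out probe by probe. The procedure was tested on simulated data. The number of arrays, 8 per group, limits the precision.

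A gene was represented by the brightest of its tested probes, by the mean over all arrays. The text names every member with its probes, gene names among the 3 most like each member (not all are reported here), and up to 4 genes per pathway list that were called for the HFD or for a mutant against WT mice on the CTRL diet, the largest change first. Other genes of short counts were named after their values were seen. The members and lists were chosen with earlier results of these data known. Replicate numbers came from the labels, and the deviations of same-numbered mice had a mean r from −0.0311 to 0.089 per number. Promoters came from RefSeq (GRCm38.p6), and 7 of 8 members matched. Alternatives covered weights, filter, scaling, background correction, batch terms, outlier spots, the deposited log2 table, the replicate number, each wash batch, the threshold and the probe of a gene.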

Additional observations from a re-analysis of the deposited data

Results flagged for a closer look

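In 6 of 48 sets of 8 mice, 1 for each gene and group, the highest or lowest mouse stood apart from the others by Dixon's test, which chance flags in about 1 in 20 sets. In PPARaLKO CTRL replicate 1, the array of lowest weight, Pdk1 was low at 11.03, Pdk2 was low at 11.47 and Pdp1 was high at 7.36. In PPARaKO CTRL replicate 3 Pdk4 was high at 11.35. In PPARaKO HFD mice, Pdp1 was low at 6.33 in replicate 6, and the Pdp2 repeat probe was low at 16.22 in replicate 3.

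The HFD response of WT mice differed from that of PPARaLKO mice, by limma's adjusted test of the difference, for 3 Pdk1 probes, by 0.82, 0.86 and 0.44 on the log2 scale, and for the Pdp2 unique probe by 0.56. Of the 12 other settings, 5, 6 and 5 did not call the Pdk1 differences and 6 did not call that of Pdp2.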

How the results depend on the processing

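Of 1152 values of single genes under 12 alternatives, 1033 kept their side of the threshold, 102 lost their call, 17 gained one and 0 reversed a call. Some values that were not called changed sign, such as the Pdk4 responses of both mutants to the HFD within wash batch 1. Counts of called members that moved by over 1.5 times are given here, other counts moved by less, and the cause was not tested. For the HFD in WT mice, 2 genes became 1 without array weights, without the filter, with the slide as a block, within wash batch 2 and at an adjusted p of 0.01, and 0 within wash batch 1. For the HFD in PPARaLKO mice, 4 became 0 without weights and within wash batch 1, 1 without the filter, within wash batch 2 and at 0.01, and 2 without the wash term. For the HFD in PPARaKO mice, 5 became 1 without weights, 2 within wash batch 2, and 3 without the filter, with scaling to the 75th percentile, with the slide block, without the wash term, within wash batch 1 and at 0.01. Between PPARaKO and WT mice on the CTRL diet, 4 became 1 without weights and within wash batch 1, and 2 without the filter and at 0.01. Between PPARaLKO and WT mice on the CTRL diet, 4 became 1 without weights and 2 within wash batch 1. Between the mutants on the CTRL diet, 3 became 1 without weights and within wash batch 2, and 0 within wash batch 1 and at 0.01. On the HFD, 4 became 2 for PPARaKO against WT mice without weights and within wash batch 1. For PPARaLKO against WT mice on the HFD, 3 became 1 without weights, without the filter, without the wash term and at 0.01, 0 within wash batch 1 and 5 when any probe counted. Between the mutants on the HFD, 2 became 0 without weights, without the filter, with the slide block, within wash batch 1 and at 0.01, 1 with scaling to the 75th percentile and within wash batch 2, and 4 when any probe counted. For the difference of the WT and PPARaLKO responses, 1 became 0 without weights, without the filter, within each wash batch, with the replicate block and at 0.01, and 2 with scaling to the 75th percentile, with normexp background correction, without the 2 arrays of lowest weight and when any probe counted.

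Leaving out these 2 arrays was chosen after seeing the data. It added Pdk3 for the HFD in PPARaLKO mice (0.29, limma's adjusted p = 0.038), Pdk2 between the mutants on the CTRL diet (−0.28, adjusted p = 0.0321), Pdk1 between PPARaKO and WT mice on the HFD (−0.40, adjusted p = 0.0266) and Pdk2 in the difference of the WT and PPARaLKO responses (0.42, adjusted p = 0.0461). The replicate block lost 5 of the 32 calls and gained 1. Of 48 arrays, 11 correlated best with others of their own number. This count was not compared with the number that chance would give, so it does not decide whether the numbers pair the mice. Over all probes, the HFD in PPARaLKO mice called 6735, and 1270 without weights, 3578 without the filter, 4236 without the wash term, and 1643 and 1712 within wash batches 1 and 2. The difference of the WT and PPARaLKO responses called 3472, and 298, 1226, 2185, 1319 and 166 in the same order, 2122 with the slide block and 2276 with the replicate block. Other comparisons moved too. The HFD in WT mice called 6248, and 666 within wash batch 2. The difference of the PPARaLKO and PPARaKO responses called 1139, and 21 within wash batch 1. With scaling to the 75th percentile, 34.6% of the probes called for the HFD in PPARaLKO mice were higher, 37.8% of those for PPARaLKO against WT mice on the HFD and 68.6% of those for the difference of the WT and PPARaLKO responses. With the deposited log2 table these shares were 47.1%, 49.5% and 55.7%. Dim probes such as those of Pdk3 are limited by their signal over background.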
